A study of Mus musculus with 37 samples.

Results

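The genes described here were the metallothioneins Mt1 and Mt2, the zinc importer Slc39a4, the zinc exporter Slc30a1 and the metal-sensing transcription factor Mtf1. They were taken as the rows with these 5 symbols, out of 31533 gene symbols in 3 count tables, and all 5 were present in each table. They were chosen by their measured VIP and irradiation fold changes in these same samples, so those effects are given below as descriptions without p-values.

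Jejunal organoids of adult mice were left untreated or given the neuropeptide VIP (vasoactive intestinal peptide) at 100 nM, and polyadenylated RNA was sequenced at its 3′ end with unique molecular identifiers (UMIs). In the experiment on whole organoids, which were derived from C57Bl/6 mice, VIP was given for 72 h to cultures of 4 mice, and untreated cultures of 3 of these mice were analysed. In another experiment, organoids carrying the Lgr5-EGFP-IRES-CreERT2 reporter were left untreated or given VIP for 72 h, and living Lgr5-EGFP+ cells were sorted from 4 mice per group. In the irradiation experiment, Lgr5-EGFP+ cells were sorted from organoids of 4 mice in 4 groups, which received a dose of 6 Gy or none and VIP for 48 h or none. The 4 groups were parallel cultures of each mouse, and in the paper's scheme VIP was given after the irradiation. All of these cultures held epithelium without the nerves and immune cells of the gut, and each culture was grown from an organoid line of 1 mouse. The EGFP of this reporter is driven by the Lgr5 locus itself. The leukocyte genes Ptprc and Cd3e and the fibroblast genes Col1a1 and Pdgfra were close to absent, with between 0 and 4 UMIs in each sample in which they were listed. Other leukocyte and mesenchymal markers were detected, and Cd74 and Vim among them are given with the irradiation results below.

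Metallothioneins are small cysteine-rich proteins that bind zinc and copper in the cytosol. When free zinc rises, the zinc finger protein MTF1 moves to the nucleus and binds metal response elements in the promoters of Mt1, Mt2 and Slc30a1. In the small intestine SLC39A4 (ZIP4) brings dietary zinc into enterocytes from the lumen, its mRNA and protein are higher when zinc is scarce, and SLC30A1 (ZnT1) lets zinc out across the basolateral membrane.

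Mt2 and Mt1 lie in tandem on chromosome 8 of the mouse genome (GRCm38), at 94172664 to 94173568 and 94179082 to 94180327 on the plus strand, with 5513 bases between them. The promoter sequences upstream of their RefSeq starts are shown because the results turn on this gene pair and its promoters are the classic targets of MTF1. They come from RefSeq (GRCm38.p6, plus strand), at chr8:94178839-94179081 for Mt1, which stops where an earlier start in GENCODE begins, and chr8:94172368-94172617 for Mt2. Capitals mark the core of the metal response element, searched on both strands as TGCACNC or TGCGCNC.
Mt1: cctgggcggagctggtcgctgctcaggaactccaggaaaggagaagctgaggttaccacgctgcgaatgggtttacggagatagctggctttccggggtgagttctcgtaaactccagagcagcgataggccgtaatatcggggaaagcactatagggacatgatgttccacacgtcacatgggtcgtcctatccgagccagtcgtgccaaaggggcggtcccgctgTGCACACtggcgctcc
Mt2: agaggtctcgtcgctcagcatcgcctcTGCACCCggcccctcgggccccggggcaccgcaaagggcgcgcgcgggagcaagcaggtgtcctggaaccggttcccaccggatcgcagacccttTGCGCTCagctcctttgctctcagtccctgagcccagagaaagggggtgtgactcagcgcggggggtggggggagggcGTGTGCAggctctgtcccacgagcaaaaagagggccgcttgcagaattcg
Within the 250 bases upstream of the RefSeq start, the core was found 1 time for Mt1, beginning at base -23, and 3 times for Mt2, beginning at bases -223, -128 and -50, the last on the minus strand. Slc30a1 had 1 match, on the minus strand at base -43, and Mtf1 had 0. RefSeq promoters were matched for 4 of the 5 genes. Of 32851 promoters of the same length, 21.4% held at least 1 match and 1.26% held at least 3. A match describes letters only and was not tested for binding. Bases downstream of the RefSeq starts were not searched. The counts therefore do not compare all the elements that Mt1 and Mt2 may have.

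The other members are single genes elsewhere in the genome: Slc39a4 on chromosome 15 (76612383 to 76617384, minus strand), Slc30a1 on chromosome 1 (191906767 to 191913247, plus strand) and Mtf1 on chromosome 4 (124802104 to 124849800, plus strand). Mt2, Slc30a1 and Mtf1 overlap a gene on the opposite strand, and the strand setting of the counting is not given in the sources used here. The overlapping antisense gene of Mt2, Gm45774, had 5 to 40 UMIs per library against at least 649 for Mt2 in any sample. The opposite-strand gene of Mtf1, 1110065P20Rik, had 27 to 190 UMIs per library, against 4 to 151 UMIs for Mtf1 per sample, so the Mtf1 counts are uncertain in this respect. No run of 65 bases, the length of the sequenced cDNA read, was shared between transcripts of the 5 genes and any other gene.

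Samples held 3722716 to 6330404 UMIs in whole organoids, 575242 to 1104126 in the sorted cells of the experiment without irradiation and 1075715 to 1876729 in the irradiation experiment. This depth left Mt1 (1619 to 14230 UMIs per sample) and Mt2 (649 to 5671) far above counting noise, Slc39a4 at 16 to 1410 UMIs, and Mtf1 and Slc30a1 at 4 to 151 and 1 to 116 UMIs. Levels are given as CPM, the UMI count relative to a library size scaled by the trimmed mean of M-values (TMM). They are compared between samples and not between genes. The Lgr5 transcript itself was measured at 12.4 to 53.4 CPM in sorted cells and at 45.0 to 115 CPM in whole organoids. The 2 kinds of sample came from different mice and experiments, and the label of the sorted cells rests on the reporter. Paneth cell transcripts summed to between 3872 and 28340 CPM in the sorted groups, so the sorted samples were not free of them.

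1 whole-organoid library stood apart from its label. The VIP-treated culture of mouse 3 had a pair of technical replicates, and the library labelled as the second of them differed from its partner. Its Slc39a4 level was 88.7 CPM by library size, against 178.9 in its partner, 76.5 to 96.9 in the 5 untreated libraries and 178.9 to 234 in the other 7 VIP libraries. Its Mt2 level was 1126 CPM against 678 in its partner, with 943 to 1200 in untreated libraries and 426 to 678 in the other VIP libraries. The goblet cell gene Clca1 stood at 52.3 CPM against 325 in its partner and 40.2 to 60.9 in untreated libraries. Cybrd1, a ferric reductase of the enterocyte, was low in mouse 3, with 3.22 CPM in the untreated library and 7.21 in the partner, and was 24.9 CPM in this library, within the 21.8 to 37.7 CPM of the untreated libraries of mice 1 and 2. On all 4 genes this library thus lay among the untreated libraries, and on Cybrd1 apart from mouse 3. Fold changes, list counts and the Mt1 to Mt2 ratio in whole organoids are therefore given with and without it, whereas levels per culture and summed marker levels include it.

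**Figure D1:**
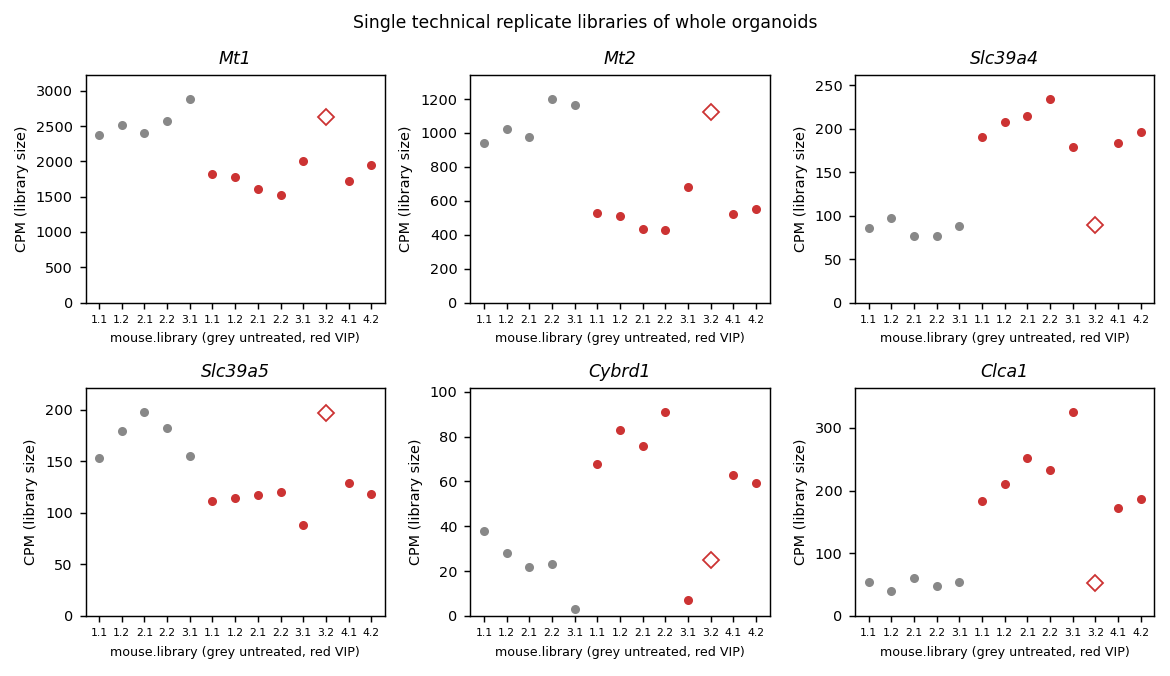
CPM by library size (y axis) of 6 genes in each of the 13 whole-organoid libraries, numbered by mouse and library, untreated in grey and VIP-treated in red. The open diamond is the second library of VIP-treated mouse 3, which lies with the untreated libraries for Mt1, Mt2, Slc39a4, Slc39a5 and Clca1.

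In whole organoids, both metallothioneins fell and Slc39a4 rose with VIP. Mt2 was 0.53-fold and Mt1 0.71-fold of the untreated level of the same mouse, whereas Slc39a4 was 2.19-fold higher. The exporter Slc30a1 and the sensor Mtf1 did not pass the threshold. The threshold was an adjusted p of 0.05 over all 12727 genes tested with edgeR's quasi-likelihood test, with mouse as a block. It was passed by 3 of the 5 genes, and by 4.82% of all genes (3.72% higher, 1.1% lower). Nothing is read from this comparison or the like ones below, since the same contrasts were in view when the genes were picked.

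Mt1 measured 2382, 2426 and 3060 CPM in untreated organoids of mice 1 to 3, and 1783, 1535, 2280 and 1837 CPM in VIP-treated organoids of mice 1 to 4. Every VIP-treated sample was below every untreated sample. The share of all genes whose groups separate in this way was not counted, so nothing is read from such separation here or below. The fitted log2 fold change was -0.50 (SE 0.087), and Mt1 was lower in 3 of 3 mice. Mt2 measured 958, 1066 and 1234 CPM in untreated and 514, 423, 864 and 538 CPM in VIP-treated organoids. Here too the groups did not overlap, and the highest VIP-treated value was that of mouse 3, whose library pair was discordant. The log2 fold change was -0.91 (SE 0.12), lower in 3 of 3 mice. Without the discordant library the values were -0.55 (SE 0.071) for Mt1 and -1.02 (SE 0.096) for Mt2.

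Slc39a4 measured 89.1, 74.4 and 92.9 CPM in untreated and 197.1, 221.8, 146.2 and 190.2 CPM in VIP-treated organoids. The groups did not overlap, and mouse 3 was again the least changed. Its log2 fold change was 1.13 (SE 0.14), higher in 3 of 3 mice, and 1.24 (SE 0.10) without the discordant library. Slc30a1 measured 16.4, 19.6 and 19.4 CPM in untreated and 12.1, 12.7, 18.6 and 12.5 CPM in VIP-treated organoids, which overlapped through mouse 3. Its log2 fold change was -0.38 (SE 0.17), or -0.39 (SE 0.16) without the discordant library, and it passed the threshold only when mouse 3 was left out (-0.54, SE 0.19). Mtf1 lay between 18.0 and 26.5 CPM in untreated and between 21.1 and 23.8 CPM in VIP-treated organoids, with a log2 fold change of 0.06 (SE 0.15), or 0.10 (SE 0.13) without the discordant library. The calls of Mt1 and Mt2 were lost when mouse was left out of the model (-0.50, SE 0.14, and -0.89, SE 0.22), whereas the call of Slc39a4 held in all 12 alternatives. The alternatives refit the samples by which the genes were picked. They describe how far a call depends on the processing and add no support to it, here or below.

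**Figure D2:**
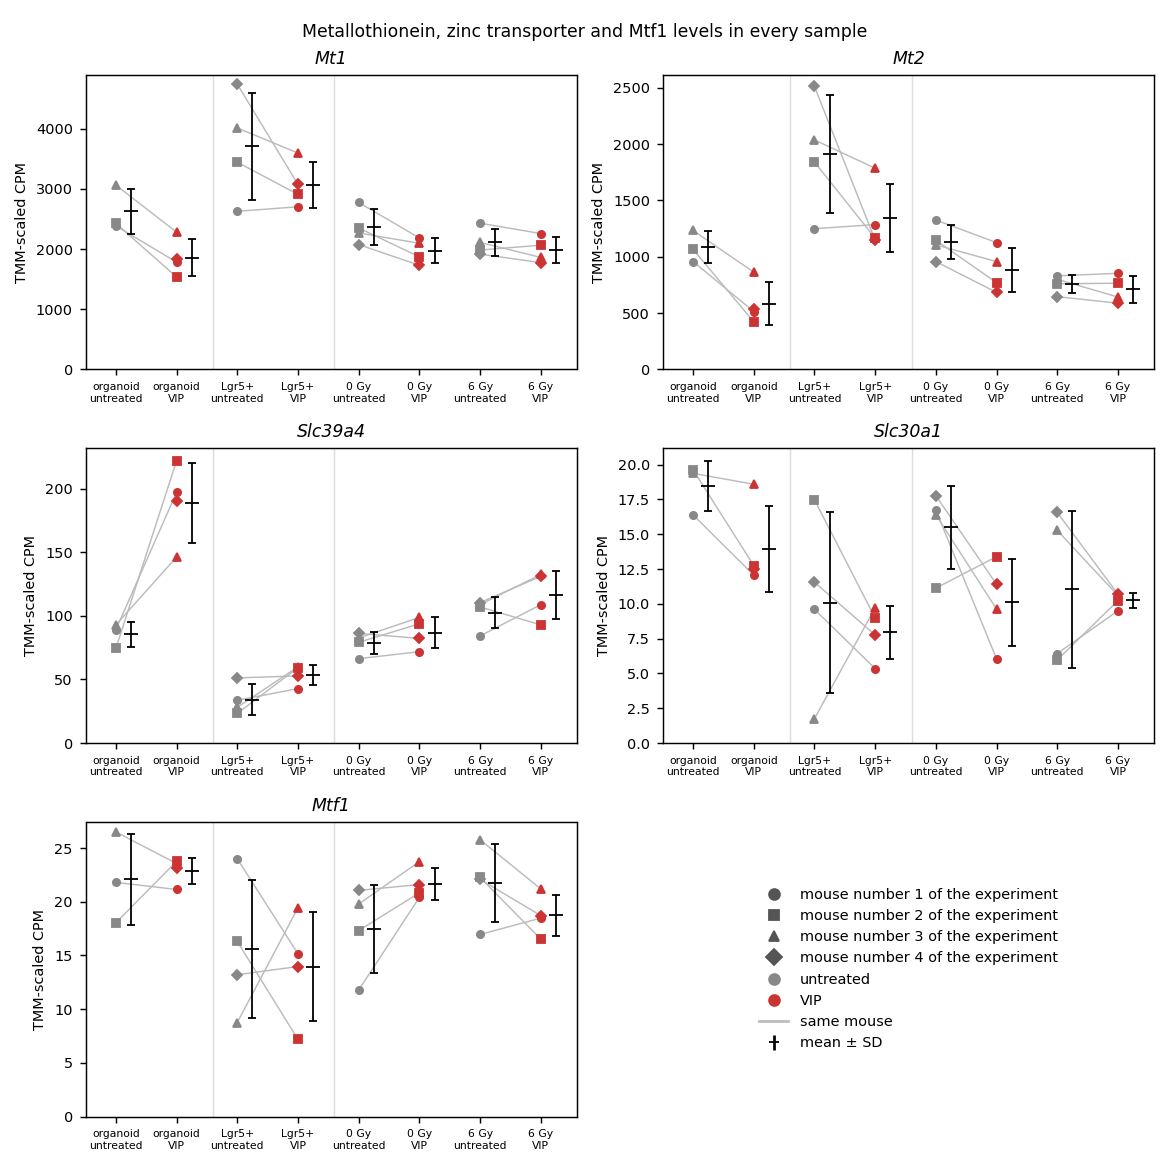
TMM-scaled CPM (y axis, from 0) of Mt1, Mt2, Slc39a4, Slc30a1 and Mtf1 in every sample of the 8 groups, with marker shapes for mouse numbers within an experiment, grey lines joining cultures of the same mouse, and black bars for mean ± SD. In whole organoids the Slc39a4 points run from 74.4 to 92.9 CPM untreated and from 146.2 to 221.8 CPM with VIP, and the 3 experiments were scaled separately.

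Other cell types moved in the same organoids. Goblet cell genes were higher with VIP for 6 of 8 tested markers, among them Clca1, Zg16 and Agr2, and 7 of 8 without the discordant library. Their summed level was 5331 to 7197 CPM untreated and 7687 to 9372 CPM with VIP. Enterocyte markers were split, with 2 of 10 higher (Alpi and Vil1) and 2 lower (Fabp1 and Treh), or 3 higher and 3 lower without the discordant library. They summed to 13708 to 14105 CPM untreated and 10934 to 13696 CPM with VIP. Paneth markers summed to 11689 to 22261 CPM untreated and 12981 to 20723 CPM with VIP, with 0 of 9 past the threshold (3 of 9 without the discordant library). The part of these shifts in the metallothionein and Slc39a4 values was not tested. In bulk samples, fewer cells of a type and less RNA per cell cannot be told apart.

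Among the other zinc transporters, VIP lowered 2 importers in whole organoids and moved none of the exporters past the threshold. Of 10 tested Slc39 family genes beside Slc39a4, 0 rose and 2 fell, with a median log2 change of 0.05 against 0.00 over all genes, and the counts were 0 and 2 without the discordant library too. Slc39a5, which encodes the basolateral zinc importer ZIP5, measured 162, 184 and 164 CPM untreated and 112, 117, 132 and 124 CPM with VIP. The groups did not overlap, in the direction opposite to Slc39a4. Its log2 change was -0.50 (SE 0.097, lower in 3 of 3 mice, adjusted p = 0.00736, edgeR's quasi-likelihood test), and the adjusted p ranged from 3.49e-08 to 0.0962 over 12 alternatives. The call was lost without mouse 1 (-0.48, SE 0.16), without mouse 2 (-0.43, SE 0.12) and without the mouse block (-0.49, SE 0.11). Without the discordant library Slc39a5 changed by -0.67 (SE 0.080).

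Slc39a8, whose product ZIP8 carries zinc and manganese, fell less firmly, from 35.7 to 47.3 CPM untreated to 22.2 to 37.2 CPM with VIP. Its log2 change was -0.48 (SE 0.12, lower in 3 of 3 mice, adjusted p = 0.0378, edgeR's quasi-likelihood test), and the adjusted p ranged from 0.00119 to 0.483 over 12 alternatives, 5 of which kept the call. Without mouse 1 (-0.51, SE 0.19) or mouse 2 (-0.38, SE 0.16) the call was lost, and without the discordant library the change was -0.47 (SE 0.11). Of 7 tested Slc30 family genes beside Slc30a1, 0 passed the threshold in either direction, with or without the discordant library, and their median log2 change was 0.11 (0.21 without it). The remaining metallothioneins of the cluster were barely detected: Mt3 lay between 0 and 8.91 CPM and Mt4 between 0 and 8.75 CPM over all samples, and both were testable in whole organoids only, where 0 of 2 passed the threshold, also without the discordant library.

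**Figure D3:**
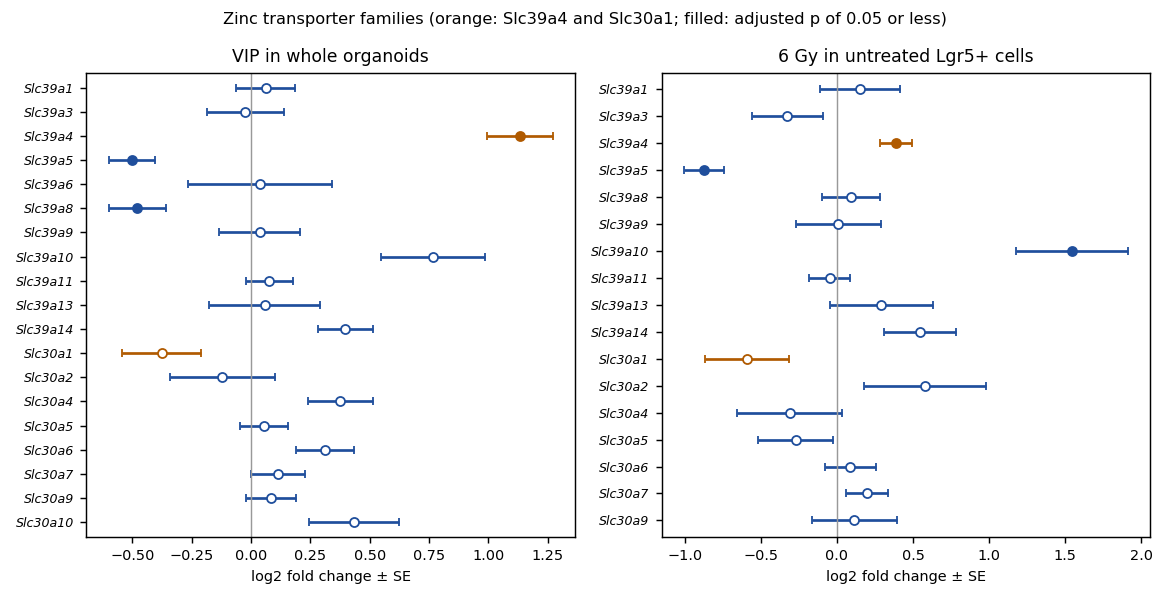
Log2 fold change ± SE (x axis) of each tested zinc importer (Slc39) and exporter (Slc30) for VIP in whole organoids (left) and 6 Gy in untreated sorted cells (right), with filled points for an adjusted p of 0.05 or less. Slc39a4 and Slc30a1 are in orange, and in both panels Slc39a4 lies right and Slc39a5 left of 0.

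Genes for other metals behaved differently from each other. Of 14 tested iron genes, 3 rose with VIP in whole organoids and 0 fell, and without the discordant library 4 rose and 1 fell. Slc40a1, the iron exporter ferroportin, rose by 2.03 on the log2 scale (SE 0.26, higher in 3 of 3 mice, adjusted p = 3.74e-04, edgeR's quasi-likelihood test), with an adjusted p of 2.44e-23 to 0.200 over 11 alternatives. Its groups overlapped, at 6.08, 4.36 and 2.56 CPM untreated and 22.5, 27.2, 4.17 and 21.3 CPM with VIP, because mouse 3 was low in both. The rise of Slc40a1 in mouse 3 came mainly from the discordant library, with 16 UMIs (6.54 CPM by library size). Its partner had 10 UMIs (2.57 CPM) and the untreated library 9 UMIs (2.42 CPM). Cybrd1 rose by 1.61 (SE 0.16, 3 of 3 mice, adjusted p = 2.91e-05, edgeR's quasi-likelihood test, 3.83e-36 to 0.524 over 12 alternatives). Slc11a2, the iron importer DMT1, rose by 0.73 (SE 0.18, adjusted p = 0.0305, edgeR's quasi-likelihood test), but in 2 of 3 mice and with 7 of 12 alternatives past the threshold. Without the discordant library the changes were 2.02 (SE 0.27) for Slc40a1, 1.52 (SE 0.14) for Cybrd1 and 0.74 (SE 0.18) for Slc11a2. Both Slc40a1 and Cybrd1 lost their calls without the mouse block. Of 10 tested copper genes, 0 passed the threshold with or without that library.

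Genes of other regulators that act on metallothioneins were also counted. Metallothioneins are induced by glucocorticoids and by oxidative and heat stress besides metals. Of 7 tested glucocorticoid response genes 1 fell in whole organoids with VIP, Tsc22d3 (-0.46, SE 0.11, adjusted p = 0.0223, edgeR's quasi-likelihood test, 0.00590 to 0.619 over 12 alternatives), and without the discordant library 2 rose and 1 fell, with Tsc22d3 at -0.48 (SE 0.092). Of 15 tested genes of NRF2 and glutathione metabolism, the glutathione transferase Gsta4 rose (1.17, SE 0.16) and Gstm1 fell (-0.88, SE 0.19). Without the discordant library 2 rose and 1 fell, with Gsta4 at 1.33 (SE 0.099) and Gstm1 at -0.81 (SE 0.16). Of 13 tested immediate early and heat shock genes, 7 rose and 0 fell with and without that library. Those with the smallest p were Fos (0.98, SE 0.15), Junb (0.63, SE 0.096) and Hspa1b (1.64, SE 0.26).

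In sorted Lgr5-EGFP+ cells given VIP for 72 h, the same 3 genes were shifted to the same side, but none of the 3 that could be tested passed the threshold. Only 0.0885% of 6778 genes did so in this experiment, 0.059% higher and 0.0295% lower (6 genes by edgeR, 2 by DESeq2, and 375 at an unadjusted p under 0.05). Mt1 measured 2626, 3442, 4010 and 4737 CPM in untreated cells and 2701, 2907, 3593 and 3073 CPM in VIP-treated cells of mice 1 to 4. The ranges overlapped, and the spread between untreated mice was wide. The log2 fold change was -0.25 (SE 0.15), lower in 3 of 4 mice. Mt2 measured 1250, 1841, 2038 and 2512 CPM untreated and 1286, 1165, 1786 and 1148 CPM with VIP. Mouse 1 did not share the lower level, and the log2 fold change was -0.48 (SE 0.16), lower in 3 of 4 mice. Much of the size came from mouse 4, without which the values were -0.12 (SE 0.21) for Mt1 and -0.27 (SE 0.20) for Mt2.

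Slc39a4 measured 33.6, 23.3, 28.0 and 51.2 CPM in untreated and 42.8, 59.3, 59.9 and 52.8 CPM in VIP-treated sorted cells. It was higher in 4 of 4 mice, by 0.67 (SE 0.25) on the log2 scale, while the ranges overlapped through untreated mouse 4. Mtf1 (7.18 to 24.0 CPM) and Slc30a1 (1.75 to 17.5 CPM) had too few counts in this experiment to be tested. Of 6 tested importers and 5 tested exporters besides, 0 passed the threshold, as did 0 of 7 copper and 0 of 9 iron genes. Of 6 tested goblet cell markers 1 fell, Fcgbp (-0.97, SE 0.17, lower in 4 of 4 mice), and the median log2 difference of the 6 was -0.55. Goblet markers summed to 3925 to 7793 CPM untreated and 2986 to 5568 CPM with VIP. None of the 7 enterocyte, 8 Paneth, 6 enteroendocrine and 7 stem and progenitor markers tested passed the threshold. The part of the goblet shift in the metallothionein and Slc39a4 values was not tested. The VIP effect was also compared between whole organoids and sorted cells in a joint model, in which lines and experiments differ between the compartments. The difference, sorted cells minus organoids, was 0.26 (SE 0.19) for Mt1, 0.44 (SE 0.24) for Mt2 and -0.46 (SE 0.30) for Slc39a4, or 0.30 (SE 0.18), 0.53 (SE 0.22) and -0.58 (SE 0.27) without the discordant library. These sizes depended on single mouse numbers. Leaving out each number in turn gave 0.17 (without 2) to 0.40 (without 4) for Mt1, 0.26 (without 1) to 0.66 (without 4) for Mt2, and -0.82 (without 3) to -0.20 (without 4) for Slc39a4. None of the 5 genes passed the threshold there, which 0.147% of 10186 genes passed (0.0196% higher, 0.128% lower).

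In the irradiation experiment, VIP for 48 h lowered both metallothioneins in the cells that were not irradiated. Mt1 measured 2773, 2350, 2268 and 2074 CPM in untreated and 2184, 1869, 2094 and 1729 CPM in VIP-treated cells. The groups overlapped, but each mouse was lower with VIP, by -0.26 (SE 0.061) on the log2 scale. Mt2 measured 1327, 1146, 1106 and 957 CPM untreated and 1126, 771, 957 and 684 CPM with VIP. It also was lower in 4 of 4 mice, by -0.37 (SE 0.075). These were 2 of 5 genes past the threshold, against 0.742% of 9976 genes (0.481% higher, 0.261% lower). Nothing is read from these shares, since the genes were picked with such effects known. The untreated cells of this comparison also serve the comparison of irradiation without VIP. The calls were sensitive to leaving out single mice. Mt1 lost its call without any one of mice 1 (-0.23, SE 0.066), 2 (-0.24, SE 0.069), 3 (-0.31, SE 0.070) and 4 (-0.27, SE 0.078), and Mt2 without mouse 2 (-0.31, SE 0.079) or mouse 4 (-0.34, SE 0.092). Without the mouse block neither gene was called.

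Slc39a4 did not pass the threshold in these cells. It measured 66.3, 79.1, 82.5 and 86.2 CPM untreated and 71.8, 93.7, 98.8 and 82.2 CPM with VIP, a log2 difference of 0.14 (SE 0.11), higher in 3 of 4 mice. Mtf1 was measured higher in 4 of 4 mice (11.8 to 21.1 CPM untreated, 20.4 to 23.7 with VIP) without passing the threshold, at 0.31 (SE 0.18). Slc30a1 was measured lower in 3 of 4 mice, at -0.62 (SE 0.27) from 11.1 to 17.8 CPM untreated and 6.05 to 13.4 CPM with VIP, again without passing it. Of the 9 other importers, 6 other exporters and 8 copper genes tested, 0 passed the threshold. Of 10 iron genes 1 rose, Ftl1, which encodes ferritin light chain (0.51, SE 0.11, 4 of 4 mice, adjusted p = 0.0321, edgeR's quasi-likelihood test, 0.00231 to 0.140 over 11 alternatives). That call was lost without any one mouse (0.36 to 0.59). Enterocyte markers moved with VIP here, with 2 of 9 lower (Fabp1 and Fabp2), and their sum was 1135 to 1524 CPM untreated and 795 to 1063 CPM with VIP. Stem and progenitor markers summed to 3399 to 4491 CPM untreated and 5258 to 5781 CPM with VIP, with Olfm4 as the marker called. Their part in the metallothionein values was not tested.

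In irradiated cells, VIP moved none of the 5 genes past the threshold, which 0.221% of 9976 genes passed, 0.13% higher and 0.0902% lower (22 genes by edgeR, 12 by DESeq2, and 574 at an unadjusted p under 0.05). Mt1 measured 2429, 1983, 2109 and 1915 CPM in irradiated untreated and 2256, 2063, 1861 and 1774 CPM in irradiated VIP-treated cells, a log2 difference of -0.08 (SE 0.062). Mt2 measured 831, 761, 801 and 646 CPM without and 854, 766, 642 and 589 CPM with VIP, a difference of -0.10 (SE 0.076) with 2 mice on either side. Slc39a4 measured 84.2, 106.9, 108.8 and 110.4 CPM without and 108.7, 92.8, 132.5 and 131.0 CPM with VIP, a difference of 0.19 (SE 0.10), higher in 3 of 4 mice. Whether the VIP effect differed with irradiation was tested as an interaction. The effect in irradiated cells minus that in non-irradiated cells was 0.18 (SE 0.087) for Mt1, 0.27 (SE 0.11) for Mt2 and 0.05 (SE 0.15) for Slc39a4. None of these passed the threshold, and nor did any of the 9976 genes (0%) with edgeR or DESeq2, while 634 had an unadjusted p under 0.05. The weaker VIP values after irradiation were thus not shown to differ from those without it.

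**Figure D4:**
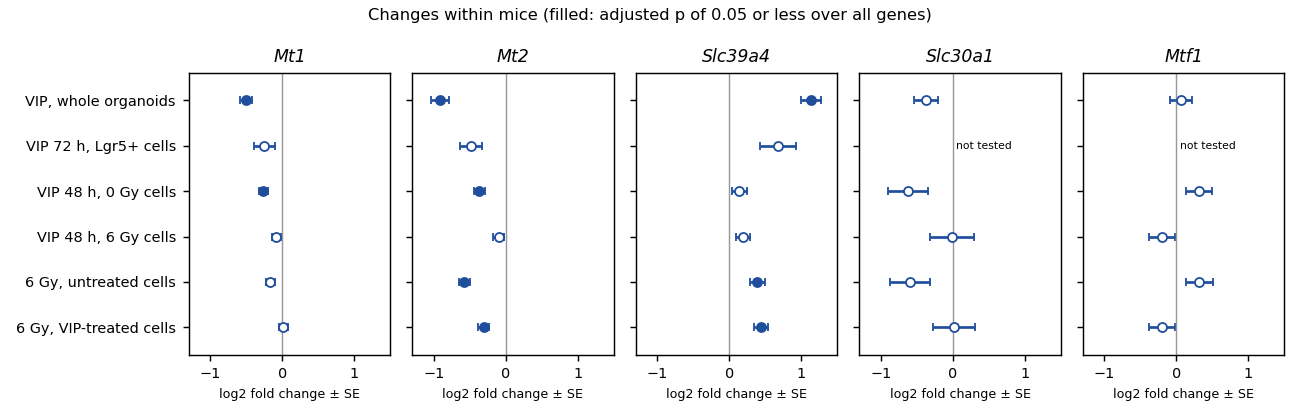
Log2 fold change ± SE (x axis) of the 5 genes in 6 comparisons (rows), within mice, with filled points for an adjusted p of 0.05 or less over all genes tested. Mt2 lies left and Slc39a4 right of 0 in each row, between -0.91 and -0.10 for Mt2 and between 0.14 and 1.13 for Slc39a4, and rows of the irradiation experiment share groups of samples.

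Irradiation lowered Mt2 and raised Slc39a4 in sorted cells without VIP. Mt2 measured 1327, 1146, 1106 and 957 CPM without irradiation and 831, 761, 801 and 646 CPM after 6 Gy. The groups did not overlap, and the log2 fold change was -0.58 (SE 0.075), lower in 4 of 4 mice, a 0.67-fold level. Mt1 changed less, from 2074 to 2773 CPM to 1915 to 2429 CPM. It was measured lower in 4 of 4 mice, at -0.16 (SE 0.061), without passing the threshold. Slc39a4 went from 66.3, 79.1, 82.5 and 86.2 CPM to 84.2, 106.9, 108.8 and 110.4 CPM, higher in 4 of 4 mice by 0.39 (SE 0.11). The ranges overlapped, because irradiated mouse 1 lay below untreated mouse 4. In all, 2 of 5 genes passed the threshold, against 4.46% of 9976 genes (2.87% higher, 1.59% lower). Here too nothing is read from the shares, or from the alternatives that follow, because of how the genes were picked. The call of Mt2 held in all 11 alternatives, and that of Slc39a4 in 5 of 11, being lost without mouse 2 (0.37, SE 0.11), mouse 3 (0.39, SE 0.13) or mouse 4 (0.39, SE 0.12), with DESeq2 (0.39, SE 0.14), with all genes of any count (0.36, SE 0.12) and without the mouse block (0.38, SE 0.13).

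Mtf1 lay at 11.8 to 21.1 CPM without and 17.0 to 25.8 CPM after irradiation, a difference of 0.32 (SE 0.19) that did not pass the threshold. Slc30a1 measured 16.7, 11.1, 16.4 and 17.8 CPM without irradiation and 6.43, 5.97, 15.3 and 16.6 CPM after it. The lower value rested on mice 1 and 2, and the difference of -0.59 (SE 0.28) did not pass the threshold.

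Between irradiated and non-irradiated cells that were both given VIP, the same 2 genes were called. Mt2 measured 1126, 771, 957 and 684 CPM without irradiation and 854, 766, 642 and 589 CPM after it, with overlapping ranges. It was lower in 4 of 4 mice by -0.30 (SE 0.075), and mouse 2 hardly differed. Slc39a4 measured 71.8, 93.7, 98.8 and 82.2 CPM without and 108.7, 92.8, 132.5 and 131.0 CPM after irradiation, higher in 3 of 4 mice by 0.44 (SE 0.10). Mt1 was measured at 1729 to 2184 CPM without and 1774 to 2256 CPM after irradiation, a difference of 0.01 (SE 0.062). Here 7.79% of 9976 genes passed the threshold (4.32% higher, 3.47% lower). The call of Mt2 was lost without mouse 3 (-0.20, SE 0.083) and without the mouse block, and that of Slc39a4 without mouse 4 (0.36, SE 0.12). Mtf1 (-0.19, SE 0.18) and Slc30a1 (0.02, SE 0.29) did not pass the threshold.

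The irradiation label was checked on targets of p53, of which 11 of 12 were higher after 6 Gy both without and with VIP. The cell cycle inhibitor Cdkn1a measured 251 to 350 CPM in non-irradiated and 581 to 688 CPM in irradiated untreated cells, a log2 change of 1.15 (SE 0.097, 4 of 4 mice). Mdm2, the ubiquitin ligase of p53, rose by 1.28 (SE 0.16, 4 of 4 mice). Markers of several cell types moved with irradiation in the sorted cells as well. Paneth markers were higher for 9 of 9 genes without VIP and 9 of 9 with VIP. Without VIP they summed to 10033 to 14666 CPM in non-irradiated and 14651 to 28340 CPM in irradiated cells. Enterocyte markers, which share their cell type with the known site of Slc39a4, were higher for 3 of 9 genes without VIP (Fabp1, Apoa1 and Slc5a1), with a median log2 change of 0.82, and for 0 of 9 with VIP. Without VIP they summed to 1135 to 1524 CPM in non-irradiated and 1409 to 2999 CPM in irradiated cells. With VIP the sums were 795 to 1063 CPM and 1087 to 1171 CPM in the same order. Enteroendocrine markers were higher for 3 of 7 genes without and 6 of 7 with VIP. Without VIP they summed to 2012 to 2836 CPM in non-irradiated and 3506 to 5478 CPM in irradiated cells. Goblet markers were higher for 5 of 8 genes without and 3 of 8 with VIP, and stem and progenitor markers lower for 2 of 7 (Olfm4 and Smoc2). Without VIP, stem and progenitor sums were 3399 to 4491 CPM in non-irradiated and 2501 to 2897 CPM in irradiated cells. The single testable leukocyte and mesenchymal markers, Cd74 and Vim, were higher without VIP, at summed list levels of at most 37.2 and 72.7 CPM, while Ptprc, Cd3e, Col1a1 and Pdgfra stayed at 0 to 4 UMIs. The part of these shifts in the Mt2 and Slc39a4 values was not tested.

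Among other metal genes, irradiation lowered Slc39a5 whether or not VIP was given after it. In untreated cells Slc39a5 measured 78.1, 97.1, 72.9 and 92.8 CPM without and 57.9, 42.3, 47.7 and 38.6 CPM after irradiation. The groups did not overlap, and the log2 change was -0.87 (SE 0.13, lower in 4 of 4 mice, adjusted p = 1.64e-04, edgeR's quasi-likelihood test), with an adjusted p of 1.60e-08 to 0.00919 over 11 alternatives. In VIP-treated cells it measured 71.8, 76.6, 62.8 and 73.2 CPM without and 51.73, 47.99, 32.97 and 35.82 CPM after irradiation. The groups again did not overlap, and the change was -0.77 (adjusted p = 5.76e-04, edgeR's quasi-likelihood test, 3.54e-06 to 0.0148 over 11 alternatives). As with VIP in organoids, the apical importer gene Slc39a4 and the basolateral importer gene Slc39a5 moved in opposite directions.

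Slc39a10, another zinc importer of the plasma membrane, was higher after irradiation without VIP. It measured 1.32 to 4.33 CPM in non-irradiated and 5.26 to 11.5 CPM in irradiated cells. The log2 change was 1.54 (SE 0.37, 4 of 4 mice, adjusted p = 0.0122, edgeR's quasi-likelihood test, 0.00512 to 0.104 over 9 alternatives). This change rests on few counts, and its call held in 4 of 9 alternatives. Among the losses were the fits without mouse 2 (1.65), 3 (1.59) or 4 (1.43). In sum 1 of 9 other importers rose and 1 fell without VIP, with a median log2 change of 0.09, and 0 rose and 1 fell with VIP. Of 6 tested exporters beside Slc30a1, 0 passed the threshold in either comparison. With VIP, 2 of 8 copper genes rose after irradiation, the copper chaperones Cox17 and Atox1, and 1 of 10 iron genes, Ftl1, fell. Without VIP 0 of 8 copper and 0 of 10 iron genes passed the threshold. Of 14 genes of NRF2 and glutathione metabolism, 2 rose after irradiation without VIP, Gss and Gsta4, and 5 rose with VIP, while 0 fell in either. Of 5 glucocorticoid response genes, 0 passed the threshold in either.

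The ratio of Mt1 to Mt2 counts within a sample does not depend on scaling. It was 2.41 ± 0.12 (SD, n = 3) in untreated and 3.29 ± 0.44 (n = 4) in VIP-treated whole organoids, so that Mt2 was the more strongly lowered of the pair. The ratio was higher in 3 of 3 mice, by 0.41 ± 0.30 on the log2 scale, and mouse 3, with the discordant library, showed the smallest change (0.09). Without that library the change was 0.47 ± 0.21, with 0.25 in mouse 3, and the ratio with VIP was 3.37 ± 0.29. In sorted cells given VIP for 72 h the ratio was 2.32 ± 0.32 against 1.96 ± 0.11 untreated (n = 4 each), higher in 3 of 4 mice. The within-mouse change there was 0.24 ± 0.26 on the log2 scale, less than its spread between mice. It was 0.42 and 0.50 in mice 2 and 4, but -0.00024 and 0.032 in mice 1 and 3. Irradiation shifted it in every mouse, from 2.09 ± 0.055 to 2.78 ± 0.19 without VIP and from 2.27 ± 0.26 to 2.81 ± 0.17 with VIP (n = 4 each). The within-mouse changes were 0.41 ± 0.067 and 0.31 ± 0.14 on the log2 scale. VIP changed it by 0.11 ± 0.16 without and 0.02 ± 0.12 after irradiation, less than the spread between mice.

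**Figure D5:**
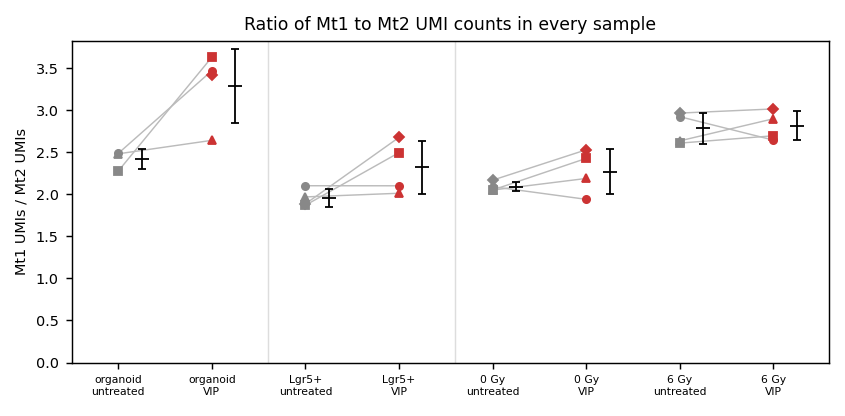
Ratio of Mt1 to Mt2 UMI counts (y axis, from 0) in every sample of the 8 groups, with lines joining cultures of the same mouse and bars for mean ± SD. The irradiated samples lie between 2.61 and 3.01, above the non-irradiated samples of the same experiment, which lie between 1.94 and 2.53.

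Across the 8 groups, Mt1 and Mt2 both had their highest mean in untreated sorted cells of the 72 h experiment (3704 ± 893 and 1910 ± 523 CPM, n = 4) and their lowest in VIP-treated whole organoids (1859 ± 310 and 585 ± 192 CPM, n = 4). Between these ends every pair of neighbouring groups overlapped in its sample values for both genes. Slc39a4 had the reverse ends. It was highest in VIP-treated whole organoids (189 ± 31.5 CPM), followed without overlap by irradiated VIP-treated cells (116 ± 19.0), and lowest in untreated sorted cells of the 72 h experiment (34.0 ± 12.2). The only other gap in its order lay between non-irradiated untreated cells (78.5 ± 8.65) and the VIP-treated sorted cells of the 72 h experiment (53.7 ± 7.95). Mtf1 means lay between 13.9 and 22.9 CPM and Slc30a1 means between 7.95 and 18.5 CPM, and all neighbouring groups overlapped. The 3 tables were scaled separately and come from different lines, so these orders across experiments are descriptions only.

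Levels of the genes were also compared as patterns, after centring log2 CPM on each mouse. In whole organoids and in the 72 h sorted cells, the centred values of a mouse's untreated and VIP-treated cultures mirror each other. The number of independent points is therefore smaller than the number of samples. Over the 30 samples of mice with both conditions and 6729 genes, Mt2 was the gene second most like Mt1 (Pearson r = 0.91), after Cth, a cystathionine cleaving enzyme of cysteine synthesis (0.92). Hint2, Rpl4 and Ces2a followed (0.89 to 0.84). For Mt2, Mt1 led, followed by Rpl4 (0.91), Cth (0.88), Hadh (0.83) and Mccc2 (0.82). For Slc39a4 the leading genes were S100a11 (0.88), S100a6 (0.87), Slc9a3r1, Anxa2 and Krt7 (0.86 each), which encode calcium-binding, scaffold and cytoskeletal proteins. Slc39a4 ran against Mt2 (r = -0.80) and Mt1 (-0.72), and Slc39a5 ran with Mt2 (0.77). These samples share treatments, and their depth differs between experiments. Mt1, Mt2 and Slc39a4 were picked by their treatment effects in these same samples, so the signs of these r values restate those effects. When group means were removed as well, Mt1 and Mt2 still ran together (r = 0.86), whereas Slc39a4 against Mt1 was 0.01 and against Mt2 -0.15. Slc39a5 with Mt2 was then 0.45. The remaining leaders were then Fbxo7, Bag2, Fibp and Upf3a for Mt1, Nfic, Mllt3, Ranbp2 and H4c4 for Mt2, and Tmem214, Arpc2, BC004004, Hspbp1 and Akr1e1 for Slc39a4. The opposite courses of Slc39a4 and the metallothioneins were thus not seen once group means were removed.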

How the data were processed

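RNA of whole jejunal organoids and of sorted Lgr5-EGFP+ cells was sequenced as 37 libraries with UMIs at the 3′ end. The deposited tables hold raw UMI counts per gene (27407, 20500 and 27547 genes), which the authors made with Drop-seq tools 1.0, GRCm38 and GENCODE M25. Of the columns, 0 lacked a sample.

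Counts were summed over the technical replicates of each culture, which left 31 samples. Each experiment was fitted on its own in R 4.3.3 with edgeR 4.0.16 (TMM, filterByExpr by group, quasi-likelihood test, Benjamini-Hochberg adjustment over all genes tested, threshold 0.05). Mouse was a block, since cultures of a mouse come from 1 organoid line. As a check of this pairing, deviations from group means correlated at 0.27 to 0.63 within and -0.54 to 0.33 between mice in whole organoids, at 0.03 to 0.21 and -0.14 to 0.15 in sorted cells of the 72 h experiment, and at -0.07 to 0.16 and -0.20 to 0.20 in the irradiation experiment. An untreated culture of mouse 4 was not analysed here, so its VIP-treated organoids add nothing to fold changes. The SE given with edgeR log2 changes is the absolute log2 change divided by the square root of the test's F statistic. It thus restates the test, while the SE given with DESeq2 is that tool's own. CPM were computed from the counts. Log2 CPM used a prior count of 2 and the Mt1 to Mt2 ratio one of 0.5.

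The 5 genes and 17 lists of related genes and markers were chosen with earlier results of these data known. Text names the 5 genes, up to 3 called genes per list by smallest p, Cdkn1a and Mdm2, defining markers, and the 5 genes of highest correlation. The genes overlapping members and those describing the discordant library were named after their values were seen. Alternatives were DESeq2 1.42.0, RLE factors, library size alone, 2 other filters on low counts (any count, or 10 in every sample), no mouse block, leave-one-out over mice, the first library of each culture, omission of the discordant library (for the Mt1 to Mt2 ratio added after seeing the data), and fits of only the 8 samples compared. Scripts were tested on simulated data. Coordinates follow GENCODE M21, also on GRCm38.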

Additional observations from a re-analysis of the deposited data

Results flagged for a closer look

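Slc30a1 in VIP-treated whole organoids was far from the others in 1 of 4 samples: mouse 3 had 18.59 CPM and mice 1, 2 and 4 had 12.1 to 12.7 CPM. That culture includes the library that went against its label, but both of its libraries were high (18.0 and 18.8 CPM by library size). Slc39a4 in irradiated untreated cells was low in 1 of 4 samples, 84.17 CPM in mouse 1 against 106.9 to 110.4 CPM in the others, and mouse 1 also had the lowest value of the non-irradiated untreated group (66.3 CPM). These were 2 of 42 groups of 4 samples examined, and chance alone singles out about 1 in 20.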

How the results depend on the processing

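No gene of the 5 changed the sign of a call, and the Mt1 to Mt2 ratio and the group levels moved by less than 1 SD under the other prior count or scaling. With the mouse block left out, 1 of the 5 genes passed the threshold for VIP in whole organoids, 0 for VIP in non-irradiated cells, 1 for irradiation in untreated cells and 1 with VIP, and the counts over all genes were 99 for VIP in whole organoids, 1 in sorted cells, 34 in non-irradiated and 12 in irradiated cells, 323 and 642 for irradiation without and with VIP, and 0 for the compartment interaction. The block changed no other call of the 5 genes. DESeq2 called 300 genes in whole organoids, 2 in sorted cells, 12 for VIP in irradiated cells, 281 for irradiation without VIP (1 of the 5 genes) and 489 with VIP. With all genes of any count the numbers were 979 in whole organoids, 17 in sorted cells, 182 and 110 for VIP without and after irradiation, 34 and 57 for the interactions with irradiation and compartment, and 567 (1 of the 5 genes) and 872 for irradiation without and with VIP. Library size alone gave 14 in sorted cells and 9 for the compartment interaction. At least 10 counts in every sample gave 11 and 7. Fitting only the 8 samples compared gave 184 and 52 for VIP without and after irradiation. Without the discordant library 1261 genes were called in whole organoids and 27 for the compartment interaction, and the first libraries alone gave 28 for the latter. Leaving out each mouse gave 363 to 1668 genes in whole organoids (1668 without mouse 3), 3 to 17 in sorted cells, 31 to 42 and 5 to 34 for VIP without and after irradiation, 176 to 645 and 439 to 693 for irradiation without and with VIP, 0 to 1 and 4 to 41 for the interactions with irradiation and compartment. Of the 5 genes 3 to 4, 0 to 1, 1 to 2 and 1 to 2 were then called for VIP in whole organoids and non-irradiated cells and for irradiation without and with VIP. The ratio change under VIP in irradiated cells lay between -0.02 and 0.07 (log2) without each mouse. The cause of these changes was not tested. Depth limits Mtf1 and Slc30a1, which had 1 to 151 UMIs per sample.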
